A study of Danio rerio with 28 samples.

Results

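The genes described here are the amino acid and peptide transporters of the zebrafish larval gut. They were chosen by name and level: the gene symbol had to start with slc1a, slc3a, slc6a, slc7a, slc15a, slc36a, slc38a or slc43a, and the mean CPM (counts scaled to 1e+06 per library) over the 20 libraries of experiment 2 had to reach 0.5. Of 15419 genes in that table, 63 had such a symbol and 42 also reached the level. They are 14 slc6a, 8 slc7a, 6 slc38a, 5 slc1a, 4 slc43a, 3 slc15a and 2 slc3a genes, and no gene with the stem slc36a was among them. The member nearest above the limit was slc6a15 at 0.763 CPM, and the gene nearest below it was slc38a11 at 0.45 CPM. In the table of experiment 1, 41 of the 42 had a row. The exception is slc7a3, since experiment 1 lists slc7a3a and nothing in the files joins the names.

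Guts came from larvae 7 days after fertilization, and each of the 28 libraries came from a pool of 10 to 15 guts. Experiment 1 compared wild type with il22-/- larvae, 4 libraries each, with no housing stated. Experiment 2 held 5 groups of 4 libraries: conventional wild type, germ-free (axenic) wild type, conventional il22-/-, germ-free il22-/- and co-housed il22-/-. The labels give neither the il22 allele, nor the strain, nor the fish with which the last group was housed, and no co-housed wild type is analysed here. They do not say whether pools came from separate clutches, so p-values measure the spread between pools, some of which may be technical.

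Dietary protein reaches the gut epithelium as small peptides and free amino acids. At the brush border, Slc15a1 carries di- and tripeptides with protons, Slc6a19 carries neutral amino acids with sodium, and Slc1a1 carries glutamate and aspartate. At the basolateral side, exchangers made of an Slc7a light chain and the Slc3a2 heavy chain, and uniporters such as Slc43a2, pass amino acids toward the blood. Other members of the same families serve the lysosome (Slc15a4, Slc38a7, Slc38a9), the nervous system (Slc1a3, Slc6a9) or substrates that are not protein amino acids, such as serotonin (Slc6a4), taurine (Slc6a6) and creatine (Slc6a8). Most of these roles are known from mammals. One member is no transporter by its name: slc7a6os is named as the opposite-strand neighbour of slc7a6. Where transcripts of the pair overlap, reads cannot be told apart unless the counting used strand. Neither the strand setting nor the positions of the genes are given in the sources used here.

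Library totals ranged from 30.24 to 37.95 in units of 1e+06 counts in experiment 1 and from 22.26 to 31.0 in experiment 2. In experiment 1, il22 averaged 7.49 CPM in wild type against 0.906 CPM in knockout guts, with no overlap (exact permutation test, two-sided, p = 0.0286, the smallest that 4 against 4 libraries allow). In experiment 2 it was near the limit of detection, at 0.36 against 0.177 CPM in conventional guts (exact p = 0.4) and 0.0667 against 0.0298 CPM in germ-free guts (exact p = 0.714), so it did not check those labels. Skeletal muscle markers, of which 14 of 16 were in the tables, summed to between 69.3 and 958 CPM in conventional wild type and between 34.9 and 721 CPM in germ-free wild type. The high values came from conventional wild type 1 and germ-free wild type 2. Co-housed knockout libraries ranged from 28.4 to 288 CPM, and co-housed knockout 2 had the highest mean log2 CPM of these markers in its group. Conventional wild type 4 stood apart from the other 3 libraries of its group in several transporters. It held the lowest slc6a19a.1, slc7a3, slc3a2b, slc43a2a and slc6a8 of the group and the highest slc6a6b.

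Levels between genes were compared by TPM (transcripts scaled to 1e+06 per library), which takes gene length into account. Over the 20 libraries of experiment 2 the highest member was slc15a1b, the zebrafish gene of the peptide carrier PEPT1, at 941 TPM (lowest library 636, highest 1560). It was followed by slc6a19b (B0AT1, neutral amino acids) at 703 TPM, slc43a2b (LAT4, branched-chain and aromatic amino acids) at 381 TPM and slc15a2 (PEPT2, a peptide carrier of higher affinity) at 328 TPM. These 4 genes held 71.9% of the summed TPM of the 42. The ranges of neighbours in this order overlapped: slc15a1b with slc6a19b (494 to 986 TPM), and slc43a2b (265 to 597 TPM) with slc15a2 (152 to 518 TPM). Next came slc1a1 at 148 TPM, slc6a18 at 105 TPM and slc6a19a.1 at 92.3 TPM. In all, 6 members averaged 100 TPM or more, 20 lay from 10 to 100, 12 from 1 to 10 and 4 under 1, the last being slc6a14, slc6a4b, slc7a4 and slc6a15.

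**Figure D1:**
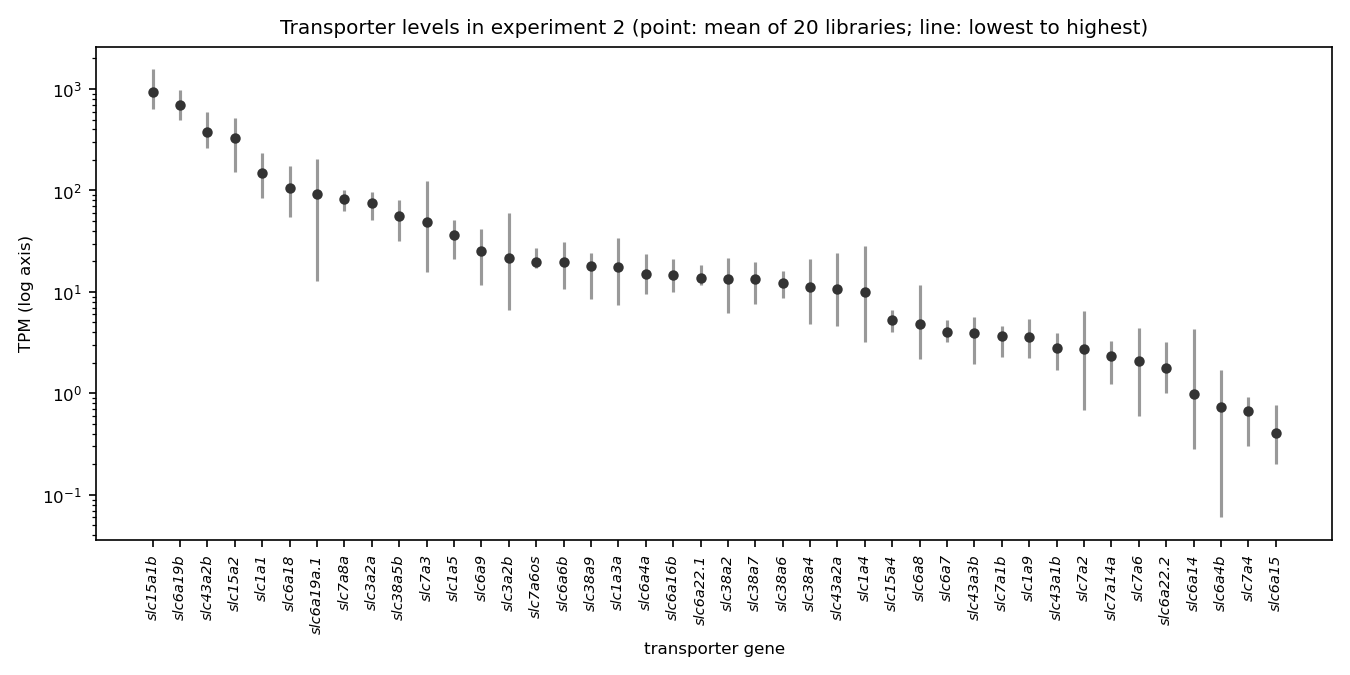
Mean TPM of the 42 transporter genes over the 20 libraries of experiment 2, on a log axis, with lines from the lowest to the highest library. The 4 leading genes, slc15a1b, slc6a19b, slc43a2b and slc15a2, held 71.9% of the summed TPM.

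The members also differed in how far pools of one group scattered. The coefficient of variation (SD over mean, in CPM) had a median over groups of 5.13% for slc7a6os, 7.06% for slc3a2a and 8.06% for slc15a4. At the other end it was 82.2% for slc6a4b, 49.4% for slc6a14, 38.7% for slc3a2b and 35.4% for slc6a19a.1. Of the last 4, slc6a4b and slc6a14 rest on low counts, and slc3a2b and slc6a19a.1 do not. For slc6a14, a carrier of neutral and cationic amino acids, it was widest in conventional (125%) and germ-free wild type (122%). There conventional wild type 1 stood at 7.4 CPM and germ-free wild type 2 at 7.96 CPM, against at most 2.52 CPM elsewhere. These are the same libraries that held skeletal muscle transcripts. In the other groups the coefficient of variation of slc6a14 ran from 20.6% to 68.2%. The part of muscle in these values was not tested.

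The comparisons of knockout with wild type asked which transporters differ between il22-/- and wild type guts. With neither allele nor strain given, loss of il22 cannot be told apart from other differences between the lines. In experiment 1, 9 of the 41 members tested were higher in the knockout (16.1% of all genes were) and 6 lower (17.0% of all genes), 15 in all, where 33.1% of all genes tested passed. The change was tested on counts with edgeR's quasi-likelihood test and Benjamini-Hochberg adjustment over all genes, at a threshold of 0.05. In conventional guts 5 of 42 were higher (17.0% of all genes) and 13 lower (19.1% of all genes), 18 in all, where 36.2% of all genes passed. In germ-free guts 5 were higher (13.5% of all genes) and 6 lower (13.3% of all genes), 11 in all, where 26.8% of all genes passed. The members' shares were therefore 36.6%, 42.9% and 26.2%, close to those of all genes. The median log2 fold change of the members was 0.04, -0.19 and -0.11, and that of all genes -0.01, -0.02 and -0.004. The genotypes were without overlap for 14, 17 and 10 members, where 34.3%, 31.3% and 29.8% of all genes did not. The germ-free count fell to 6 without germ-free wild type 2 (23.5% of all genes passed). It fell to 7 without germ-free wild type 4 (23.7%) or germ-free knockout 2 (22.5%). It was also 7 with both muscle-rich wild type libraries and co-housed knockout 2 left out (24.3%). With the enterocyte marker score as a covariate it was 7 (26.7% of all genes passed), and that of experiment 1 was 9 (26.5%). Liver markers summed to 544 to 756 CPM in conventional wild type and 234 to 694 CPM in the conventional knockout. With the liver score as a covariate the conventional count was 12 (28.2% of all genes passed), without slc1a5, slc1a9, slc43a3b, slc6a22.1, slc6a4b and slc6a9. The summed CPM of the members was 7800 ± 350 in wild type against 7030 ± 432 in knockout guts of experiment 1 (SD, n = 4). It was 7810 ± 804 and 6470 ± 427 in conventional guts, and 6590 ± 560 and 5670 ± 561 in germ-free guts. The sum of experiment 1 covers 41 members, without slc7a3. Members of high level weigh most in these sums. Mean slc15a1b went from 2820 to 1810, 2520 to 1770 and 2040 to 1320 CPM in the same order. Mean slc6a19b went from 2010 to 1140, 1670 to 1080 and 1680 to 1240 CPM. In experiment 1, slc15a2 rose from 612 to 1150 CPM and slc43a2b from 600 to 1070 CPM. The lower sums alone therefore do not show a fall across the members. In conventional guts more members were called lower (13, where 19.1% of all genes were) than higher (5, where 17.0% were). Without conventional wild type 4 the split was 9 lower and 6 higher, while over all genes 4683 were called in place of 4070.

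Across these comparisons, 3 members fell in each: slc15a1b, slc6a19b and slc1a1. Another 2, slc7a2 and slc15a4, rose in each. Of the 10372 genes tested in both tables, 5.30% were lower and 6.68% higher in all 3. No member was called in opposite directions, 24 were called in 1 or 2 of the comparisons, and 13 in none. For these last counts the shares over all genes were not computed, so they do not set the members apart from other genes. The conventional and germ-free comparisons use separate libraries, but both were fitted together and share 1 estimate of the spread.

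slc15a1b is the main peptide carrier of the intestinal brush border. In experiment 1 it stood at 3150, 2430, 2950 and 2760 CPM in wild type against 2200, 2070, 1320 and 1660 CPM in knockout guts. Conventional guts had 2330, 3120, 2540 and 2080 CPM in wild type against 1790, 1710, 1670 and 1880 CPM in knockout guts. Germ-free guts had 2010, 1780, 2010 and 2350 CPM in wild type against 1340, 1230, 1180 and 1510 CPM in knockout guts. In each of the 3 settings the highest knockout library lay below the lowest wild type library. The gene fell by 0.64 ± 0.16 on the log2 scale (SE, n = 4 per group; adjusted p = 0.012 in edgeR's test) in experiment 1. It fell by 0.51 ± 0.12 (adjusted p = 0.00237) in conventional guts and by 0.63 ± 0.12 (adjusted p = 0.000506) in germ-free guts.

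slc15a2, the peptide carrier of higher affinity, went the other way. In experiment 1 it rose from 581, 665, 554 and 647 CPM to 1220, 1270, 1130 and 965 CPM, a log2 fold change of 0.91 ± 0.10 (n = 4 per group; adjusted p = 0.000186, edgeR). The groups were far apart, with no overlap. In germ-free guts it stood at 537, 377, 680 and 629 CPM in wild type against 729, 1140, 577 and 923 CPM in knockout guts, with overlapping libraries, and was called higher at 0.60 ± 0.20 (adjusted p = 0.0298, edgeR). That call was lost without germ-free wild type 1 or 2 or germ-free knockout 2 or 4, each left out alone (adjusted p up to 0.128 over all alternatives). In conventional guts its averages were 758 CPM in wild type against 911 CPM in knockout guts, a log2 fold change of 0.27 ± 0.20 that did not pass (adjusted p = 0.303, edgeR).

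The balance of the pair separated the genotypes in every library of both experiments. The ratio of slc15a1b to slc15a2 in TPM ranged from 4.47 to 6.61 in wild type against 1.43 to 2.19 in knockout guts of experiment 1. In conventional guts it ranged from 3.01 to 5.95 in wild type and from 2.1 to 2.71 in the knockout, and in germ-free guts from 3.64 to 5.76 and from 1.32 to 2.5. Co-housed knockout libraries gave 1.57 to 2.71. The lowest wild type library, conventional wild type 4, was at 3.01 and the highest knockout library at 2.71. This ratio was chosen after the values of both genes had been seen, and is given without a test.

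**Figure D2:**
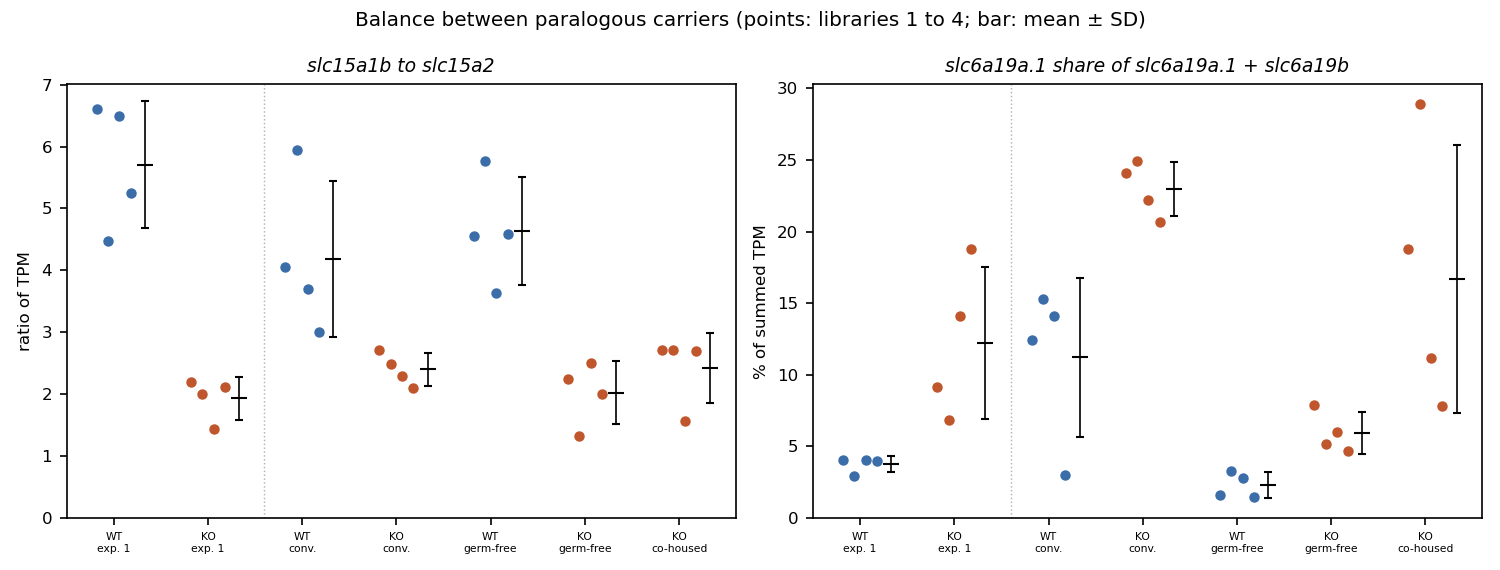
Left, ratio of slc15a1b to slc15a2 TPM in each library of the 7 groups; right, TPM of slc6a19a.1 as a percentage of summed slc6a19a.1 and slc6a19b TPM. Points are libraries, bars the mean and SD; every wild type library lay at 3.01 or more on the left and every knockout library at 2.71 or less.

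slc15a4, a lysosomal carrier of histidine and peptides, was much lower in level and rose by a small amount. It averaged 12 ± 0.792 CPM in wild type against 15 ± 1.63 CPM in knockout guts of experiment 1 (SD, n = 4), 10.4 ± 1.19 and 13.3 ± 0.69 CPM in conventional guts, and 10.4 ± 0.388 and 12.4 ± 1 CPM in germ-free guts. The log2 fold changes were 0.33 ± 0.10, 0.35 ± 0.09 and 0.26 ± 0.09 (adjusted p = 0.0253, 0.00592 and 0.0436, edgeR). Libraries did not overlap in experiment 1 and in conventional guts, while germ-free knockout 4 (10.9 CPM) reached the top of its wild type group. The call of experiment 1 was lost without wild type 1, 2 or 4 or knockout 1, and the germ-free call without any library except germ-free knockout 4. The conventional call kept its side of the threshold under the 17 alternatives run.

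slc6a19b, the main carrier of neutral amino acids by level, changed with little scatter. It stood at 2070, 1990, 2000 and 1990 CPM in wild type against 1030, 1130, 1100 and 1300 CPM in knockout guts of experiment 1. Conventional guts had 1520, 1900, 1600 and 1670 CPM against 1020, 972, 1120 and 1220 CPM, and germ-free guts 1620, 1520, 1730 and 1840 CPM against 1200, 1260, 1040 and 1480 CPM. All wild type libraries lay above all knockout libraries of the same setting. The gene fell by 0.82 ± 0.08, 0.63 ± 0.10 and 0.43 ± 0.10 on the log2 scale (n = 4 per group; adjusted p = 7.77e-05, 7.51e-05 and 0.00281, edgeR).

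slc1a1, the epithelial carrier of glutamate and aspartate, also fell. Its wild type libraries held 288, 382, 322 and 432 CPM and its knockout libraries 157, 167, 211 and 209 CPM in experiment 1. Conventional guts had 366, 340, 423 and 494 CPM against 240, 194, 202 and 273 CPM, and germ-free guts 459, 370, 494 and 423 CPM against 302, 329, 243 and 318 CPM. There was no overlap between the genotypes in any setting. The log2 fold changes were -0.94 ± 0.15, -0.84 ± 0.13 and -0.55 ± 0.13 (n = 4 per group; adjusted p = 0.00131, 8.57e-05 and 0.00423, edgeR).

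slc15a1b, slc6a19b and slc1a1 kept these calls in each comparison under all the alternatives run, 15 in experiment 1 and 17 in each setting of experiment 2. The alternatives included a fit with the enterocyte marker score of each library as a covariate. Enterocyte markers, 9 of 10 of which were tested, gave 1 higher and 1 lower call in experiment 1, 3 and 3 in conventional guts, and 2 and 0 in germ-free guts. Their summed level was 28400 to 46600 CPM in wild type against 33200 to 45800 CPM in knockout guts of experiment 1. In conventional guts it was 38400 to 54600 and 34300 to 37000 CPM, without overlap, and in germ-free guts 32900 to 38400 and 30500 to 36600 CPM. The score used as the covariate is the mean log2 CPM of the markers, not this sum. In conventional guts the score overlapped, at 9.347 to 9.806 in wild type and 9.494 to 9.56 in the knockout. The covariate therefore does not allow for the difference in summed level there. In guts measured whole, fewer cells of a type and less RNA per cell cannot be told apart. A skin epithelium list also differed between the genotypes in all 3 settings. Its sum was 924 to 1150 CPM in wild type against 5360 to 5840 CPM in knockout guts of experiment 1, where 1 of its 6 tested genes was called. In conventional guts it was 1020 to 1700 and 3780 to 5150 CPM, with 1 of 7 tested genes called higher and 1 lower. In germ-free guts it was 1100 to 1250 and 3810 to 4820 CPM, with 1 of 7 called higher. The part of this list in the results was not tested.

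**Figure D3:**
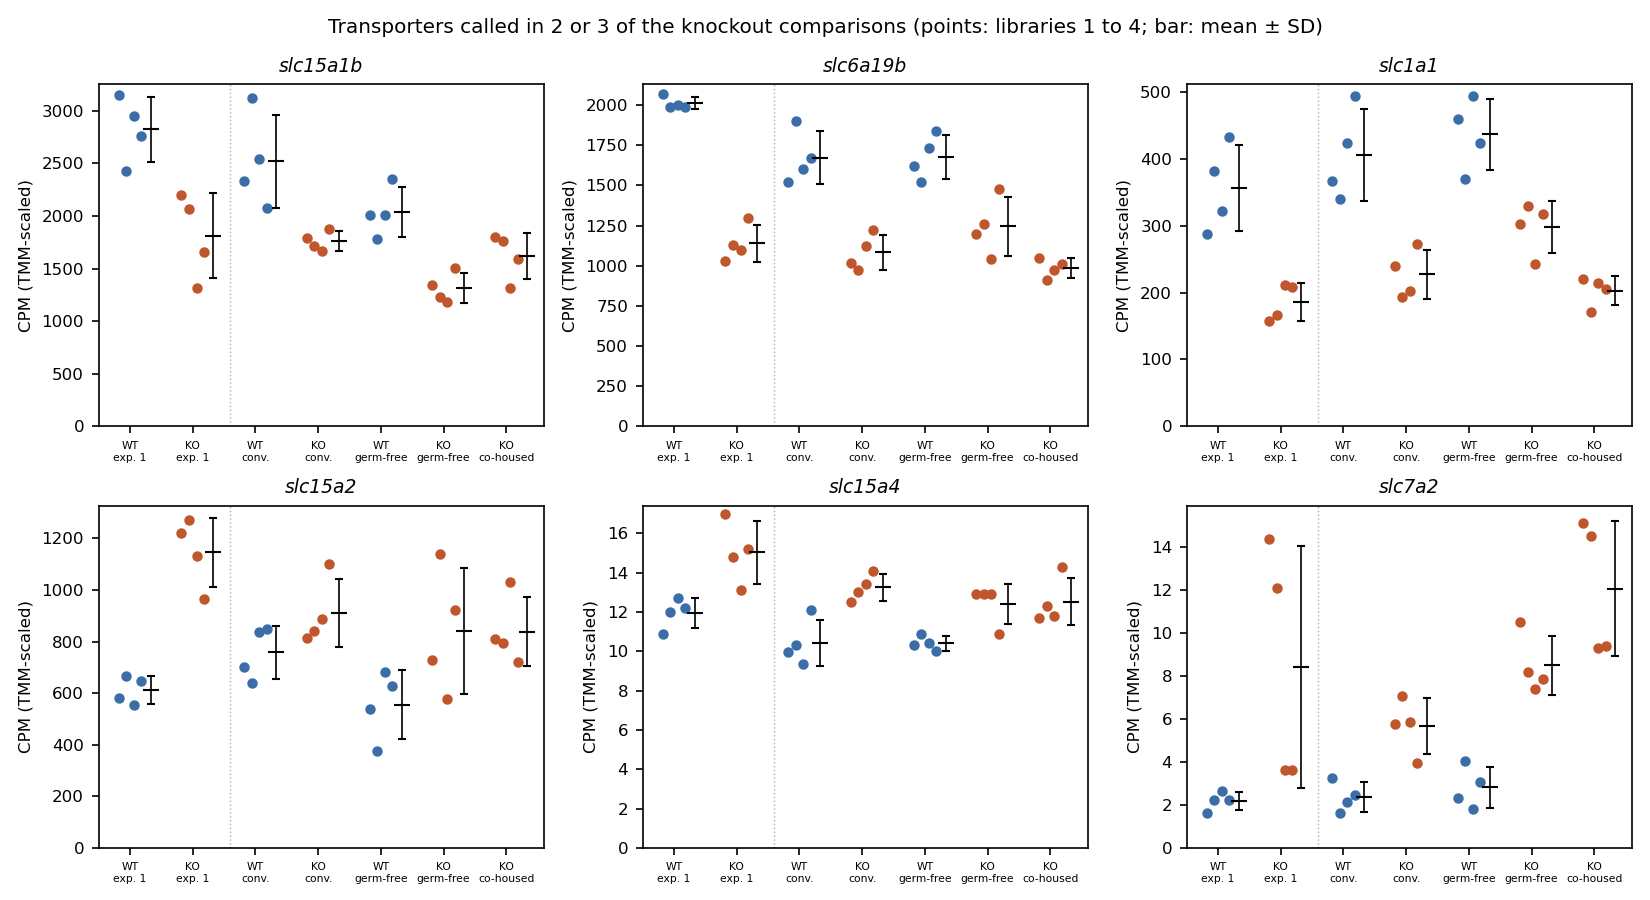
CPM of slc15a1b, slc6a19b, slc1a1, slc15a2, slc15a4 and slc7a2 in each library, with wild type in blue, knockout in orange, and the mean and SD as a bar. For slc15a1b, slc6a19b and slc1a1 all knockout points lie under all wild type points of the same setting, and for slc7a2 they all lie above.

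slc7a2, a carrier of the cationic amino acids arginine, lysine and ornithine, rose in each knockout comparison from a low level. In experiment 1 it stood at 1.61, 2.21, 2.64 and 2.23 CPM in wild type against 14.4, 12.1, 3.62 and 3.62 CPM in knockout guts. Conventional guts had 3.25, 1.61, 2.12 and 2.45 CPM against 5.79, 7.08, 5.85 and 3.95 CPM, and germ-free guts 2.33, 4.05, 1.82 and 3.06 CPM against 10.5, 8.21, 7.41 and 7.86 CPM. The genotypes did not overlap in any setting, but the knockout libraries of experiment 1 fell into 2 high and 2 low ones. The log2 fold changes were 1.96 ± 0.50, 1.27 ± 0.26 and 1.59 ± 0.25 (n = 4 per group; adjusted p = 0.0169, 0.000766 and 0.000106, edgeR). With the enterocyte score as a covariate, the call of experiment 1 was lost.

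Among the other slc7a genes and the slc3a genes, slc7a8a (LAT2, large neutral amino acids) changed in experiment 1. It stood at 128, 149, 151 and 175 CPM in wild type against 193, 197, 206 and 233 CPM in knockout guts. It rose by 0.46 ± 0.10 on the log2 scale (adjusted p = 0.00808, edgeR). Its partner slc3a2a, the heavy chain 4F2hc, rose from 173, 172, 175 and 188 CPM to 222, 219, 232 and 245 CPM (0.37 ± 0.07; adjusted p = 0.00221, edgeR). The groups of both genes did not overlap. In conventional guts neither passed: slc7a8a gave -0.18 ± 0.09 on the log2 scale (adjusted p = 0.0974, edgeR) and slc3a2a of -0.13 ± 0.10 (adjusted p = 0.293, edgeR). slc7a6, the light chain y+LAT2, was low in level and fell in conventional guts, from 4.64, 3.86, 3.97 and 4.34 CPM to 1.58, 1.31, 0.585 and 1.53 CPM (-1.74 ± 0.28; adjusted p = 7.49e-05, edgeR). slc7a6os, its neighbour by name, fell there by 0.49 ± 0.07 (adjusted p = 4.9e-05, edgeR), from 23.6 to 29.7 CPM in wild type to 19 to 20.3 CPM in the knockout. slc7a14a rose in experiment 1 (0.50 ± 0.15; adjusted p = 0.0272, edgeR), a call lost without wild type 2, 3 or 4 or knockout 3.

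The efflux uniporter slc43a2b rose in experiment 1 from 729, 561, 579 and 529 CPM to 1010, 1010, 1010 and 1220 CPM (0.83 ± 0.11; n = 4 per group; adjusted p = 0.000592, edgeR), with no overlap. In conventional guts its values overlapped, from 495 to 922 CPM in wild type against 568 to 724 CPM in knockout guts (-0.16 ± 0.14; adjusted p = 0.417, edgeR). Its paralog slc43a2a fell there, from 56.9, 53.4, 49.8 and 16.4 CPM to 25.2, 18.5, 21.2 and 23 CPM (-1.003 ± 0.32; adjusted p = 0.0199, edgeR). Conventional wild type 4 was the lowest of all 8, and without it the log2 fold change was -1.25. The call was lost without conventional wild type 1 or 2 or conventional knockout 2. slc43a1b (LAT3) rose and slc43a3b, whose mammalian counterpart carries nucleobases, fell in conventional guts (0.56 ± 0.19 and -0.62 ± 0.21; adjusted p = 0.0249 and 0.0251, edgeR). The former call was lost without conventional wild type 2 or 3 or conventional knockout 1 or 2, and the latter without conventional wild type 2 or 4 or conventional knockout 4.

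Of the slc6a genes, slc6a18 (B0AT3, neutral amino acids) rose in conventional guts from 131, 127, 139 and 157 CPM to 176, 273, 207 and 240 CPM (0.70 ± 0.17; n = 4 per group; adjusted p = 0.00337, edgeR) with no overlap. In experiment 1 it overlapped, with averages of 282 and 290 CPM (0.04 ± 0.13; adjusted p = 0.842, edgeR). slc6a8, the creatine carrier, fell in experiment 1 from 19.3, 11.9, 13.1 and 11.3 CPM to 9.85, 6.33, 4.54 and 6.81 CPM (-1.01 ± 0.25; adjusted p = 0.0127, edgeR). It also fell in conventional guts, from 22.4, 29.4, 26.4 and 6.08 CPM to 10.6, 7.85, 8.74 and 10.1 CPM (-1.18 ± 0.32; adjusted p = 0.00827, edgeR), where conventional wild type 4 alone lay below the knockout. Without that library the log2 fold change was -1.46.

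slc6a9, the glycine carrier GlyT1, fell in both settings of experiment 2, from 31.1, 35.4, 33.1 and 46.4 CPM to 30.1, 17.8, 22.9 and 19.4 CPM in conventional guts and from 50.3, 58, 61 and 64.9 CPM to 31.3, 45.4, 33.1 and 44.4 CPM in germ-free guts. There was no overlap in either. The log2 fold changes were -0.69 ± 0.21 and -0.60 ± 0.20 (adjusted p = 0.0139 and 0.0354, edgeR). The conventional call was lost without conventional wild type 4 or conventional knockout 2, and the germ-free call without germ-free wild type 2, 3 or 4 or germ-free knockout 1 or 3. slc6a4a, the serotonin carrier, rose in germ-free guts from 18, 15.8, 19.9 and 18.2 CPM to 28.9, 32.6, 27.9 and 39.6 CPM (0.84 ± 0.15; adjusted p = 0.000253, edgeR) with no overlap. In conventional guts its libraries did not overlap either, but the log2 fold change of 0.33 ± 0.15 did not pass (adjusted p = 0.0836, edgeR).

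The remaining slc6a calls were smaller or rested on few counts. The proline carrier slc6a7 fell in experiment 1 (-0.53 ± 0.13; adjusted p = 0.013, edgeR), and slc6a22.1 fell in experiment 1 (-0.42 ± 0.09; adjusted p = 0.0061) and in conventional guts (-0.28 ± 0.11; adjusted p = 0.0489). The latter call was lost without conventional wild type 3 or 4 or conventional knockout 2, 3 or 4. slc6a22.2 rose in experiment 1 from 0.527 to 3.23 CPM in wild type to 4.67 to 9.64 CPM in the knockout (1.48 ± 0.46; adjusted p = 0.0385, edgeR), a call lost without wild type 1 or 4 or knockout 1, 2 or 4. slc6a4b fell in conventional guts (-1.87 ± 0.71; adjusted p = 0.0478, edgeR), where its wild type libraries held 1.47 to 2.14 CPM, and this call was lost without any of the 8 libraries. slc6a15 fell in germ-free guts (-1.01 ± 0.32; adjusted p = 0.0255, edgeR) at a level of at most 1.26 CPM, and the call was lost without germ-free wild type 2, 3 or 4 or germ-free knockout 1 or 2.

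Among the slc1a and slc38a genes, slc1a5 (ASCT2, glutamine and small neutral amino acids) rose in germ-free guts from 28, 26.6, 26.2 and 31 CPM to 56.2, 57.6, 53.4 and 48.1 CPM. The log2 fold change was 0.95 ± 0.11 (n = 4 per group; adjusted p = 2.16e-06, edgeR), and the groups lay far apart. In conventional guts it rose by 0.33 ± 0.11 (adjusted p = 0.0218, edgeR) with overlap, a call lost without conventional knockout 2 or 4. The glutamate carrier slc1a3a fell in germ-free guts (-0.82 ± 0.28; adjusted p = 0.0387, edgeR), which was lost without germ-free wild type 1, 2 or 4 or germ-free knockout 2, 3 or 4. slc1a9 and slc38a6 fell in conventional guts (-0.69 ± 0.21 and -0.34 ± 0.10; adjusted p = 0.0134 and 0.00958, edgeR). The lysosomal glutamine carrier slc38a7 rose in experiment 1 (0.46 ± 0.13; adjusted p = 0.0201, edgeR), which was lost without wild type 2 or 4 or knockout 2. The amino acid carriers slc38a2 (SNAT2), slc38a4 and slc38a5b (SNAT5) passed in none of the 3 comparisons.

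The comparison of germ-free with conventional guts asked what rearing without microbes changes. In wild type 4 of 42 members were higher (12.1% of all genes were) and 12 lower (13.2% of all genes), 38.1% in all, where 25.2% of all genes passed. In the knockout 4 were higher (14.0% of all genes) and 6 lower (13.3% of all genes), 23.8% in all, where 27.2% of all genes passed. The median log2 fold change of the members was -0.21 and -0.07, and that of all genes -0.002 and 0.012. Libraries did not overlap for 7 and 15 members, where 17.1% and 33.5% of all genes did not. Of the members, 4 were lower in both genotypes (slc6a19a.1, slc7a3, slc3a2b and slc38a7) and 3 higher in both (slc3a2a, slc6a6b and slc6a9). Over all 11254 genes tested, 6.38% were lower and 6.41% higher in both.

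slc6a19a.1, a second gene of the B0AT1 type, had the largest fall of all members in wild type. Conventional wild type held 334, 528, 405 and 80.7 CPM and germ-free wild type 41.4, 79.5, 77.1 and 41.8 CPM. In the knockout, conventional libraries held 502, 497, 493 and 494 CPM and germ-free libraries 160, 105, 103 and 112 CPM. Conventional wild type 4 lay just above the highest germ-free wild type library, while the other conventional libraries lay several fold above. The log2 fold changes were -2.49 ± 0.50 in wild type and -2.05 ± 0.49 in the knockout (n = 4 per group; adjusted p = 0.00258 and 0.00568, edgeR), and without conventional wild type 4 the former was -2.78. In experiment 1, whose housing is not stated, the gene stood at 92 to 135 CPM in wild type against 129 to 466 CPM in knockout guts (1.09 ± 0.39; adjusted p = 0.0647, edgeR).

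Its paralog slc6a19b was not called for rearing in either genotype (0.005 ± 0.10 and 0.20 ± 0.10; adjusted p = 0.979 and 0.141, edgeR). The share of slc6a19a.1 in the summed TPM of the pair was 12.4%, 15.3%, 14.1% and 3.03% in conventional wild type and 1.45% to 3.28% in germ-free wild type. In the knockout it was 20.7% to 24.9% in conventional and 4.67% to 7.92% in germ-free guts. Co-housed knockout libraries ranged from 7.84% to 28.9%. Both are genes of the same carrier type, and counting could have split reads of similar stretches between them.

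slc7a3 (CAT3, cationic amino acids) followed the same groups. Conventional wild type held 208, 287, 210 and 53.2 CPM and germ-free wild type 56.3, 87.1, 72 and 74.7 CPM. The conventional knockout held 266, 328, 268 and 415 CPM and the germ-free knockout 79.1, 67, 68.1 and 74.4 CPM. In the knockout the groups were far apart, while conventional wild type 4 lay below all germ-free wild type libraries. The log2 fold changes were -1.39 ± 0.42 and -2.15 ± 0.43 (n = 4 per group; adjusted p = 0.0238 and 0.00176, edgeR). The wild type call was lost without conventional wild type 1, 2 or 3 or germ-free wild type 1, 3 or 4, and without conventional wild type 4 the value was -1.66. In experiment 1 the gene listed as slc7a3a averaged 42 CPM in wild type against 114 CPM in knockout guts (1.44 ± 0.30; adjusted p = 0.00725, edgeR).

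Of the heavy chains, slc3a2b was lower and slc3a2a higher without microbes. slc3a2b stood at 90.2, 67.7, 58.3 and 27.9 CPM in conventional and 15.8, 30.8, 14 and 18 CPM in germ-free wild type, and at 43.3, 38.3, 30.9 and 45.8 CPM against 12.9, 9.15, 16.9 and 14.9 CPM in the knockout. It fell by 1.64 ± 0.42 and 1.55 ± 0.42 on the log2 scale (adjusted p = 0.00992 and 0.0118, edgeR), with overlap in wild type only. slc3a2a stood at 204, 252, 213 and 236 CPM in conventional and 322, 254, 291 and 316 CPM in germ-free wild type, and at 199, 216, 199 and 211 CPM against 260, 266, 218 and 302 CPM in the knockout. It rose by 0.39 ± 0.10 and 0.34 ± 0.10 (adjusted p = 0.00708 and 0.0121, edgeR), with no overlap in either genotype.

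**Figure D4:**
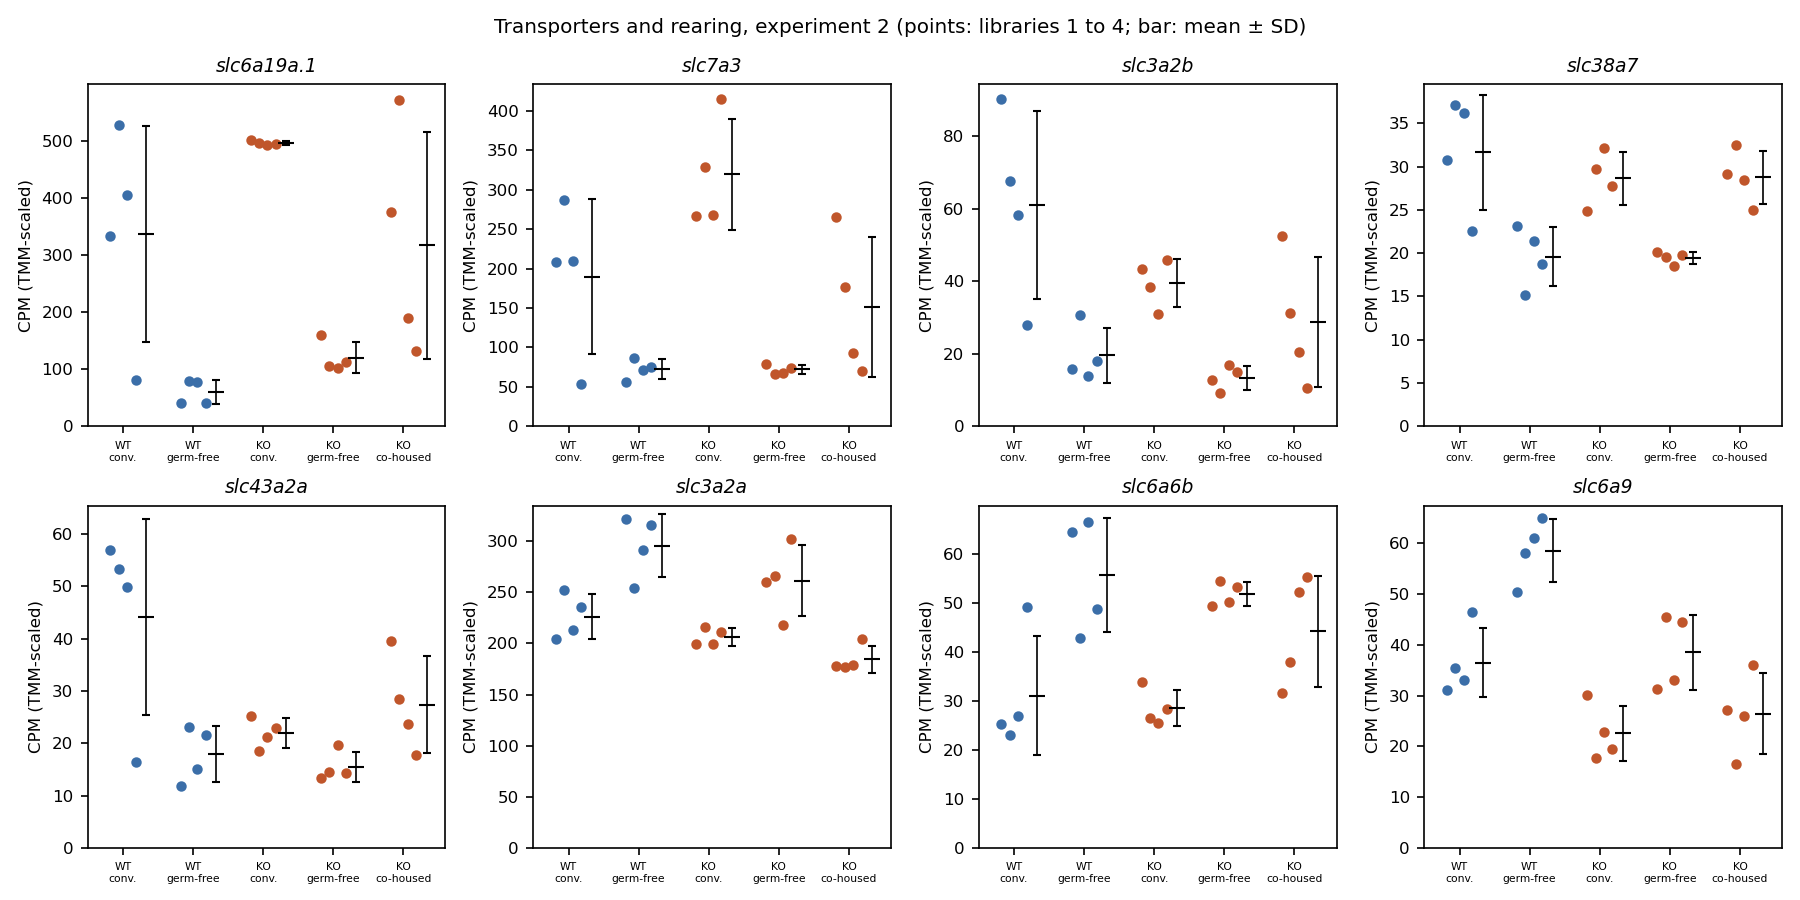
CPM of 8 transporter genes in the 5 groups of experiment 2, with wild type in blue, knockout in orange, points for libraries 1 to 4 and bars for the mean and SD. slc6a19a.1, slc7a3 and slc3a2b are low in both germ-free groups and in conventional wild type 4, and the 4 co-housed libraries are spread from high to low.

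The taurine carrier slc6a6b rose without microbes from 25.3, 23.1, 26.9 and 49.2 CPM to 64.6, 42.8, 66.6 and 48.9 CPM in wild type, and from 33.9, 26.5, 25.5 and 28.4 CPM to 49.5, 54.6, 50.3 and 53.3 CPM in the knockout (0.84 ± 0.22 and 0.86 ± 0.22; adjusted p = 0.0103 and 0.00741, edgeR). Conventional wild type 4 was as high as the germ-free libraries. slc6a9 rose by 0.68 ± 0.20 and 0.77 ± 0.21 (adjusted p = 0.0212 and 0.0104, edgeR) with no overlap in either genotype, and its wild type call was lost without conventional wild type 1 or 3 or germ-free wild type 4. slc38a7 fell by 0.69 ± 0.14 and 0.56 ± 0.14 (adjusted p = 0.0022 and 0.00681, edgeR).

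The other 12 rearing calls were made in 1 genotype each. In wild type slc1a4 (ASCT1, small neutral amino acids) rose from 7.95, 4.58, 6.01 and 9.34 CPM to 26.1, 41.2, 10.6 and 24.8 CPM (1.88 ± 0.38; adjusted p = 0.00267, edgeR). In wild type slc43a2a, slc6a8, slc7a6, slc6a16b, slc43a2b, slc1a5, slc7a6os and slc38a6 fell, by between 0.28 (slc38a6) and 1.30 (slc43a2a) on the log2 scale. Of these, slc6a8 lost its call without conventional wild type 2 or 3, and slc38a6 without any of the 8 libraries but germ-free wild type 1. In the knockout slc6a18 fell from 176, 273, 207 and 240 CPM to 151, 173, 111 and 128 CPM (-0.67 ± 0.17; adjusted p = 0.0067, edgeR) and slc15a1b fell by 0.42 ± 0.12 (adjusted p = 0.0126, edgeR), both with no overlap. slc1a1 rose there by 0.39 ± 0.13 (adjusted p = 0.0355, edgeR), which was lost without conventional knockout 1, 2 or 3 or germ-free knockout 1, 2 or 4.

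Summed enterocyte markers were 38400 to 54600 CPM in conventional and 32900 to 38400 CPM in germ-free wild type, and 5 of 9 tested were called lower and 1 higher. With the enterocyte score as a covariate, 3 of the 16 wild type calls were made, and over all genes 632 in place of 2839. Liver markers in the same libraries summed to 544 to 756 CPM and 231 to 303 CPM, and with the liver score as a covariate 12 members were called. In the knockout, enterocyte markers summed to 34300 to 37000 CPM in conventional and 30500 to 36600 CPM in germ-free guts, and 9 of 10 calls stood with that covariate. Without conventional wild type 4, 17 members were called in wild type, and over all genes 4154 in place of 2839. Without conventional wild type 1 and germ-free wild type 2, the libraries rich in muscle transcripts, 11 were called, and 1814 over all genes. The calls of slc38a6, slc6a8, slc6a9, slc7a3 and slc7a6os were then lost.

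A call in 1 genotype does not show that the genotypes differ, and the interaction tests that difference. For no member did the effect of germ-free rearing differ between knockout and wild type after adjustment (0 of 42, where 0.444% of all genes passed in edgeR, 0.329% more positive and 0.116% more negative in the knockout). Without adjustment, 6 members had a p under 0.05, and the share over all genes was not counted. DESeq2 called 2 members, slc1a5 and slc7a6, and over all genes 347 in place of 50. With limma on log2(TPM + 1), slc7a6 was called. The values nearest to the threshold were slc1a5 at 0.62 ± 0.15 (adjusted p = 0.0666, edgeR) and slc7a6 at 1.47 ± 0.39 (adjusted p = 0.0767, edgeR). Without conventional wild type 4, 5 members passed (slc1a5, slc6a16b, slc6a8, slc7a6 and slc7a6os), and over all genes 989 in place of 50. Without germ-free knockout 2, slc7a6 passed.

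The co-housed knockout was compared with the conventional knockout, the germ-free knockout and conventional wild type, which share libraries with the comparisons above. Against the conventional knockout 1 of 42 members was higher (2.38%, where 1.50% of all genes were) and 0 were lower (1.09% of all genes), where 2.59% of all genes passed. It was slc7a2, which stood at 15.1, 14.5, 9.3 and 9.39 CPM in co-housed and 5.79, 7.08, 5.85 and 3.95 CPM in conventional knockout guts, with no overlap. The log2 fold change was 1.09 ± 0.24 (n = 4 per group; adjusted p = 0.0211, edgeR), and the call was lost without conventional knockout 1, 3 or 4 or co-housed knockout 1. Libraries did not overlap for 5 members, where 12.6% of all genes did not.

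Several members of the rearing group scattered widely among the co-housed pools. slc6a19a.1 stood at 375, 572, 189 and 132 CPM, slc7a3 at 265, 176, 93.2 and 69.7 CPM, and slc3a2b at 52.5, 31.2, 20.6 and 10.6 CPM in co-housed libraries 1 to 4. The first 2 libraries lay near the conventional knockout for slc6a19a.1, and the other 2 lay below it, one of them within the range of the germ-free knockout. slc6a6b, which is higher without microbes, was at 31.6, 37.9, 52.3 and 55.3 CPM in the same libraries. In none of these genes did the co-housed group pass against the conventional knockout (adjusted p from 0.13 to 0.60, edgeR).

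Against the germ-free knockout, 1 member was higher (3.93% of all genes were) and 3 lower (3.34% of all genes), 9.52% in all, where 7.27% of all genes passed. slc38a7 was higher (0.56 ± 0.14; adjusted p = 0.0246, edgeR), and slc3a2a (-0.50 ± 0.10; adjusted p = 0.00616), slc1a1 (-0.55 ± 0.13; adjusted p = 0.0213) and slc6a19b (-0.34 ± 0.10; adjusted p = 0.0453) were lower. Of these only slc3a2a kept its call under all 17 alternatives. The call of slc38a7 was lost without germ-free knockout 2, 3 or 4 or co-housed knockout 1 or 2, that of slc1a1 without germ-free knockout 2 or 4 or co-housed knockout 2, and that of slc6a19b without germ-free knockout 1, 2 or 4 or co-housed knockout 1, 2 or 3. Without co-housed knockout 4, 8 members passed, and over all genes 1483 in place of 818. Without co-housed knockout 2 these counts were 1 and 135. Without co-housed knockout 1, 2 members passed, and 1 passed without germ-free knockout 2 or 4.

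Against conventional wild type, 6 members were higher in the co-housed knockout (16.1% of all genes were) and 9 lower (17.1% of all genes), 35.7% in all, where 33.2% of all genes passed. slc7a2 rose most (2.35 ± 0.26; n = 4 per group; adjusted p = 1.34e-06, edgeR). slc15a1b, slc6a19b and slc1a1 were lower, with log2 fold changes of -0.64 ± 0.12, -0.76 ± 0.10 and -0.999 ± 0.14 (adjusted p = 0.000398, 1.01e-05 and 1.57e-05, edgeR), and each of the co-housed libraries lay below all conventional wild type libraries. slc15a4, slc1a5, slc43a1b, slc6a18 and slc6a4a were the other members higher, and slc38a6, slc3a2a, slc3a2b, slc43a2b, slc7a6 and slc7a6os the others lower. Of these, 7 calls were each lost without single libraries. They were slc15a4 (conventional wild type 1, 2 or 3 or co-housed knockout 2 or 4), slc43a1b (wild type 2 or 3 or co-housed 1 or 4), slc6a18 (wild type 1, 2 or 3 or co-housed 3 or 4) and slc6a4a (wild type 1 or 2 or co-housed 1, 3 or 4). Likewise lost were slc3a2a (wild type 2 or 4 or co-housed 1 or 3), slc3a2b (wild type 1, 2 or 3 or co-housed 2, 3 or 4) and slc43a2b (wild type 2 or 3 or co-housed 1 or 3). Without conventional wild type 2, 9 members passed. Liver markers summed to 242 to 347 CPM in the co-housed knockout and 544 to 756 CPM in conventional wild type, with 9 of 18 tested lower, and 8 of 17 exocrine pancreas markers were higher. With the liver score as a covariate 10 members were called, and over all genes 2289 in place of 3733. The calls of slc15a4, slc1a5, slc3a2a, slc3a2b, slc6a18 and slc6a4a were then lost. With the compared groups fitted alone, 9 of the 15 calls stood, where 22.5% of all genes passed. Those of slc15a4, slc1a5, slc3a2b, slc43a1b, slc43a2b and slc6a4a were lost there.

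**Figure D5:**
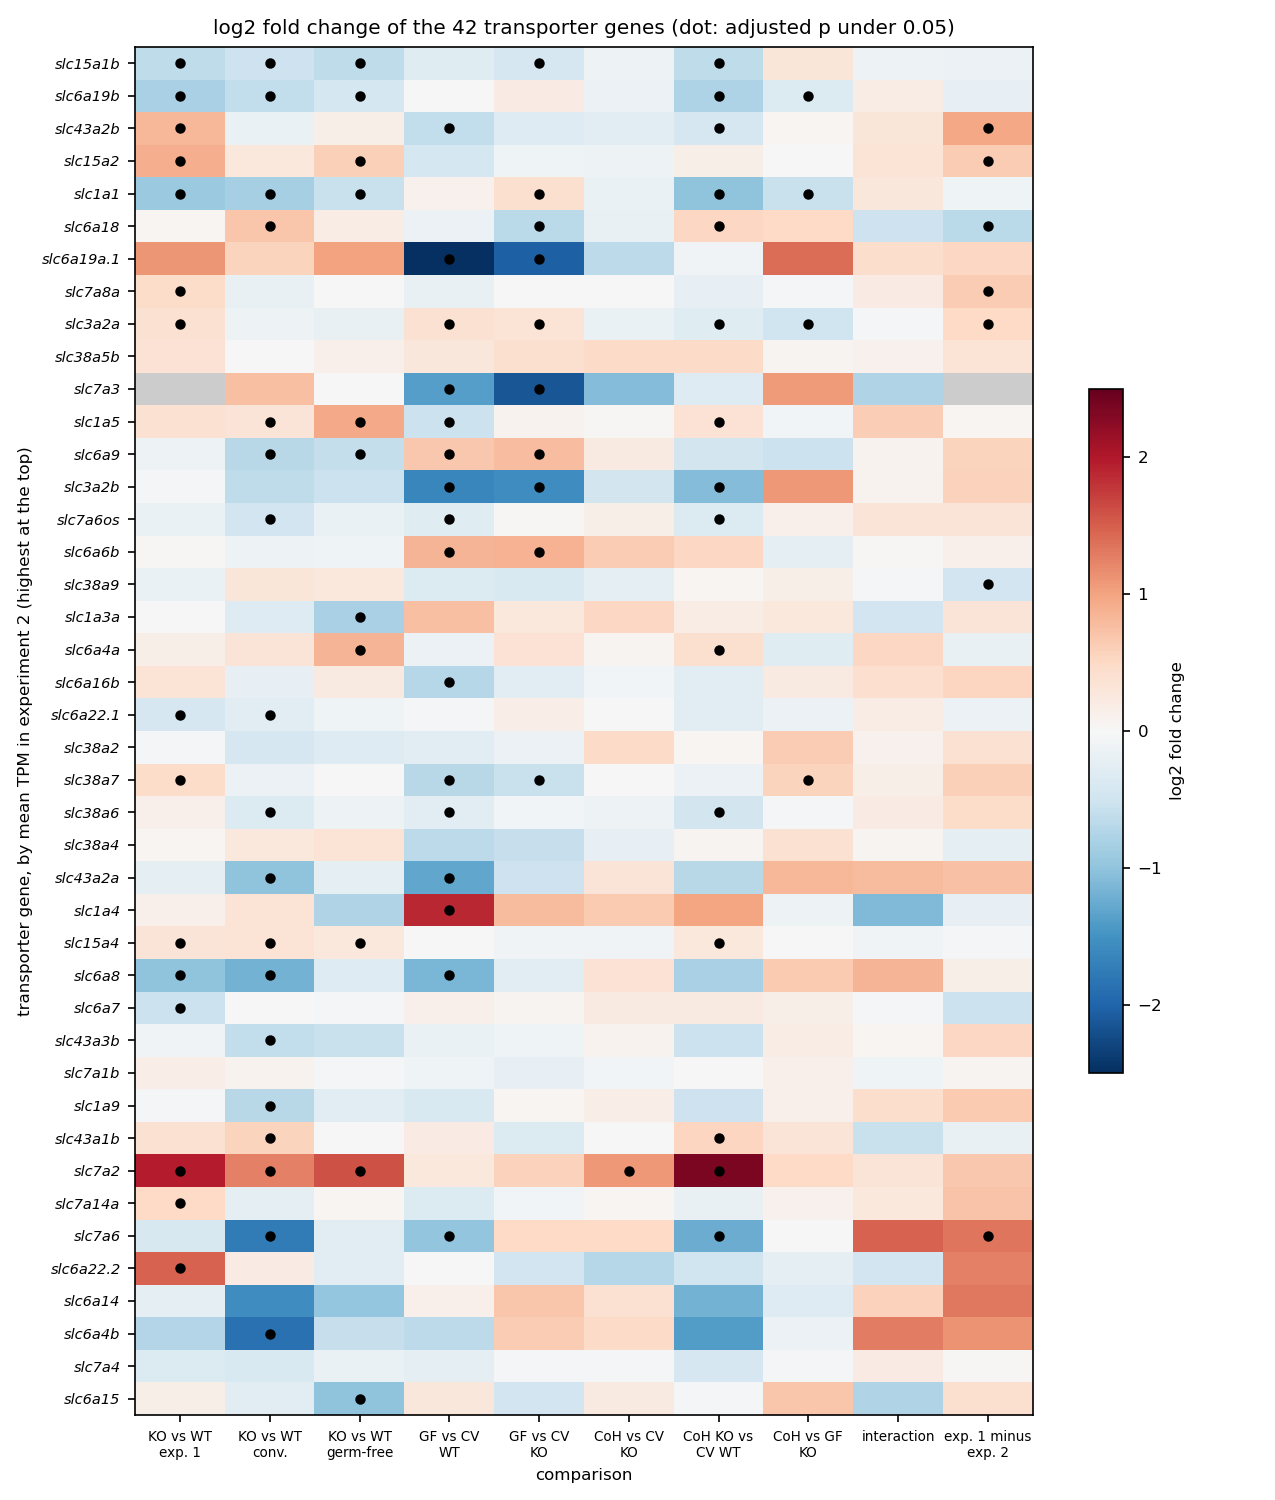
Fitted log2 fold changes of the 42 transporter genes (rows, ordered by mean TPM in experiment 2) in 10 comparisons, with red for higher and blue for lower in the first-named group, black dots for an adjusted p under 0.05 and grey where the gene had no row. The rows of slc15a1b, slc6a19b and slc1a1 are blue and that of slc7a2 red in all 3 knockout comparisons; the column for the interaction has no dot.

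The knockout effect was also compared between experiment 1 and conventional guts of experiment 2, which were counted separately. It differed for 7 of 41 members (17.1%, where 9.92% of all genes passed): 5 had a more positive effect in experiment 1 (4.85% of all genes had) and 2 a more negative one (5.07% of all genes). The differences in log2 fold change were 0.97 ± 0.22 for slc43a2b (adjusted p = 0.0102, edgeR), 0.63 ± 0.14 for slc7a8a (adjusted p = 0.00888), 0.49 ± 0.10 for slc3a2a (adjusted p = 0.00649), 0.63 ± 0.17 for slc15a2 (adjusted p = 0.0236) and 1.33 ± 0.34 for slc7a6 (adjusted p = 0.0202). For the first 4 the rise was seen in experiment 1, and for slc7a6 the fall was seen in conventional guts of experiment 2. slc6a18 (-0.67 ± 0.20; adjusted p = 0.0436) and slc38a9, a lysosomal carrier and amino acid sensor (-0.47 ± 0.14; adjusted p = 0.0444), differed the other way. Under another scaling (RLE) 6 members were higher and 0 lower, and both of the latter calls were lost without most single libraries. slc15a2 lost its call without experiment 1 wild type 3 or knockout 2, conventional wild type 3 or conventional knockout 1 or 2. Without conventional wild type 4, 11 members differed, and over all genes 1900 in place of 1096. Without experiment 1 wild type 3, conventional wild type 3 or conventional knockout 2, 4 differed. Housing, line and date of the experiments cannot be told apart from this difference.

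Genes that work with these carriers were counted from 5 lists. Of the partners that carry B0AT1 to the membrane or drive sodium-coupled uptake, 8 were tested in experiment 1, with 5 higher and 0 lower. In experiment 2, 9 were tested, with 2 higher and 1 lower in conventional and 4 higher and 1 lower in germ-free guts. Of all genes, 16.1% were higher and 17.0% lower in experiment 1, 17.0% and 19.1% in conventional guts, and 13.5% and 13.3% in germ-free guts, for comparison. cltrn, the gene of collectrin, which helps Slc6a19 reach the membrane in mammalian kidney, rose in all 3 knockout comparisons (0.99 ± 0.11, 0.95 ± 0.13 and 1.15 ± 0.13; adjusted p = 0.000211, 1.74e-05 and 2.5e-06, edgeR). Collectrin and slc6a19b thus moved in opposite directions. The list's median was 0.59, -0.02 and 0.04. The kinase gene sgk1 fell without microbes in wild type and in the knockout (-1.11 and -0.88).

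Carriers outside the 8 stems gave 7 higher and 1 lower call of 14 tested in experiment 1, 5 and 2 of 15 in conventional and 5 and 1 of 15 in germ-free guts (all genes higher: 16.1%, 17.0% and 13.5%; lower: 17.0%, 19.1% and 13.3%). Among those that rose in all 3 were slc66a1, a lysosomal exporter of cationic amino acids (0.70 ± 0.17, 1.02 ± 0.09 and 1.22 ± 0.09; adjusted p = 0.012, 1.18e-07 and 1.43e-08, edgeR), and mfsd12a and slc17a5, other lysosomal carriers. Brush border peptidases gave 6 higher and 2 lower of 12, 6 and 2 of 13, and 5 and 3 of 13. The list of lysosomal and mTORC1 amino acid sensing gave 4 and 1 of 25, 9 and 1 of 26, and 7 and 2 of 26, with tfeb, the regulator of lysosome genes, higher in each (0.72, 0.87 and 0.82). Their medians were 0.34, 0.12 and 0.25 for the carriers, 0.31, 0.31 and 0.05 for the peptidases and 0.08, 0.18 and 0.12 for the sensing list, beside -0.01, -0.02 and -0.004 for all genes. Markers of lysosome-rich enterocytes, the cells that take up and digest luminal protein, summed to 3670 to 4350 CPM in wild type against 5470 to 9290 CPM in knockout guts of experiment 1. There 6 of 9 were called higher and 2 lower. Their sum in conventional guts was 4540 to 5800 and 5560 to 6780 CPM, with 3 higher and 2 lower, and in germ-free guts 3120 to 4800 and 4600 to 6470 CPM, with 5 higher and 2 lower. Their part in these list results was not tested. Without microbes the lists of carriers, peptidases and partners had no higher call in wild type, against 7, 4 and 3 lower ones of 15, 13 and 9 (12.1% of all genes were higher and 13.2% lower). In the same comparison 5 of 9 enterocyte markers were lower, and with their score as a covariate 632 genes were called in place of 2839. Their part in the list counts was not tested. In the knockout these lists gave 0 higher and 5 lower, 0 and 4, and 2 and 2 (14.0% and 13.3% of all genes). cltrn and slc66a1 were among those lower in wild type (-0.52 ± 0.13 and -0.45 ± 0.09; adjusted p = 0.00896 and 0.00271, edgeR). The sensing list gave 3 higher and 3 lower in wild type and 3 and 5 in the knockout.

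The amino acid response list (ATF4 targets, serine synthesis and aminoacyl-tRNA synthetases) split in both directions: 6 higher and 7 lower of 24 in experiment 1, 6 and 6 in conventional guts and 1 and 5 in germ-free guts, with medians of -0.05, 0.15 and -0.16. All genes gave 16.1% higher and 17.0% lower, 17.0% and 19.1%, and 13.5% and 13.3%. asns, asparagine synthetase, fell in all 3 (-1.09, -0.52 and -0.42), as did sars1, seryl-tRNA synthetase (-0.74, -0.59 and -0.69), while psph, the last enzyme of serine synthesis, rose (0.67, 0.87 and 1.03). Without microbes 5 were higher and 4 lower in wild type (12.1% and 13.2% of all genes), and 2 higher and 8 lower in the knockout (14.0% and 13.3%). chac1, a target of the ATF4 response, fell in both genotypes (-1.36 and -2.19).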

How the data were processed

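Members and lists were chosen with earlier results of these data known. The deposited tables hold raw counts per gene and TPM, which the authors scaled by length and total. FastQC 0.11.8 and the build danRer11 are named in the labels' protocols, with a TruSeq stranded kit; no source used here names aligner, counter, strand setting or annotation. Rows of experiment 1 are named by RefSeq transcripts: 15776 of 16134 were given a symbol through the RefSeq annotation of GRCz12tu, used for names only, and 14926 names were in both tables.

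CPM are counts per 1e+06 of the TMM-scaled library. Tests used edgeR 4.0.16 in R 4.3.3 (TMM, filterByExpr, robust quasi-likelihood F test, Benjamini-Hochberg over all genes, threshold 0.05), also for adjusted p-values printed without a tool name. Experiment 1 was fitted alone, the 5 groups of experiment 2 together, and the difference between experiments on the libraries concerned. The SE is the absolute log2 fold change over the square root of F. Alternatives were RLE scaling, no low-count filter, DESeq2 1.42.0, limma 3.58.1 on log2(TPM + 1), each library left out, the libraries with muscle transcripts left out, compared groups alone, a replicate block and marker scores (mean log2 CPM) as covariates. Members chosen for values per library were 19 listed by name and members called without overlap, up to 5 in each direction, with 5 CPM or more. Not all of these are printed by library (slc38a2, slc38a4, slc38a9 and slc43a3b are not, for example). slc7a6 is printed though it is outside this choice. Other members called are given by family, some with values. Levels were tested only within a table. Genes with close copies are uncertain. No sequence is printed. One gene of the lists is not reported here by name.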

Additional observations from a re-analysis of the deposited data

Results flagged for a closer look

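The 32 members chosen for values per library and il22 were examined in each group with a row. Among 229 gene and group combinations, 13 held a library whose gap to the nearest other library exceeded Dixon's critical share of the group's range. That is near the share of about 5% of groups that chance gives. The values below are in CPM, with no explanation tested. In experiment 1, slc6a19b was highest in wild type 1 (2070, others 1990 to 2000), slc43a1b in wild type 1 (7.81, others 4.53 to 5.01), slc43a2b in knockout 4 (1220, others 1010) and slc1a4 in knockout 4 (15.7, others 8.02 to 8.99). In conventional guts, slc6a6b was highest in wild type 4 (49.2, others 23.1 to 26.9) and slc38a5b lowest in knockout 3 (70.9, others 101 to 105). In germ-free guts, slc38a4 was lowest in wild type 1 (19.4, others 29.8 to 31.5). In the germ-free knockout, slc15a4 was lowest in library 4 (10.9, others 12.9), slc6a19a.1 highest in library 1 (160, others 103 to 112) and slc6a8 lowest in library 1 (5.64, others 8.18 to 8.41). Also there il22 was at 0 in library 1 (others 0.0394 to 0.0401). This flag rests on counts at the floor, which were 0, 1, 1 and 1 in libraries 1 to 4. In the co-housed knockout, slc3a2a was highest in library 4 (204, others 177 to 179) and il22 was highest in library 4 (1.03, others 0.0476 to 0.128).

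The knockout effect differed between experiment 1 and conventional guts of experiment 2 by a test of the difference itself for 7 members. In log2 fold change, experiment 1 minus experiment 2, the differences were 0.63 for slc15a2, 0.49 for slc3a2a, 0.97 for slc43a2b, 1.33 for slc7a6, 0.63 for slc7a8a, -0.47 for slc38a9 and -0.67 for slc6a18.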

How the results depend on the processing

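Of 97 calls on single members, 46 kept their side of the threshold under every alternative run, 35 were lost without at least 1 library, and 0 reversed. With the enterocyte score as a covariate, member calls were 9 in experiment 1, 7 between germ-free genotypes, 3 for rearing in wild type (632 over all genes) and 2 for co-housed against germ-free knockout (274). Without the libraries with muscle transcripts they were 7 between germ-free genotypes and 1 for co-housed against germ-free knockout (196), and over all genes 1814 for rearing in wild type, 564 for co-housed against conventional knockout and 13 for the interaction. Compared groups fitted alone gave 10 for rearing in wild type (1277 over all genes) and 16 in the knockout. DESeq2 gave 7 for co-housed against germ-free knockout (1308) and 2 for the interaction (347), and limma on TPM gave 1 for the interaction. Over all genes, the liver score left 1655 calls for rearing in wild type, 2289 for co-housed knockout against wild type and 626 for the difference between experiments, and DESeq2 gave 582 for co-housed against conventional knockout. The cause was not tested. On TPM the split was 5 higher and 6 lower in experiment 1 and 6 and 4 between germ-free genotypes.

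Leaving out each library in turn gave member calls of 12 to 16 in experiment 1, 12 to 17 between conventional and 6 to 9 between germ-free genotypes, 12 to 17 and 9 to 10 for rearing in wild type and knockout, 0 to 1 (102 to 495 over all genes), 9 to 19 and 1 to 8 (135 to 1483) for the co-housed knockout against conventional knockout, conventional wild type and germ-free knockout, 0 to 5 (7 to 989) for the interaction and 4 to 11 for the difference between experiments. Replicate numbers were not taken to mark pairs. Correlations of same-numbered deviations ran from -0.431 to 0.359, which with 4 libraries per group cannot settle whether libraries were paired. With a replicate block, calls in the same order were 13, 18, 11, 17, 11, 1, 16, 4, 0 and 6.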
